A study of Homo sapiens with 12 samples.

Results

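The genes described here are 43 genes of fatty acid synthesis, triglyceride storage, fatty acid oxidation, fatty acid activation and their regulation, picked by symbol from the 35984 gene rows of an RNA sequencing count table. All 43 were in the table. Of these, 42 had enough counts to be tested, among 16118 genes tested in all, and PDK4 did not. The study knocked down both macroH2A genes, which encode variants of histone H2A, in HepG2, an established human hepatoma line, and asked how the cells respond to the inflammatory cytokine TNFα. The 4 groups were double knock-down (DKD) cells with TNFα, DKD cells without it, control (CTL) cells with TNFα and CTL cells without it. Each group had 3 libraries. Every line carries stably integrated shRNA cassettes delivered by a pRetroSUPER retroviral vector, directed at the macroH2A1 and macroH2A2 transcripts in DKD cells. All cells spent a night in low-serum medium and then 24 hours with 20 ng/mL TNFα or with its carrier solution alone (called untreated here). Whether an arm is 1 pool of transduced cells is not stated, so the knock-down and other differences between the lines cannot be told apart. Nor is it stated that the libraries of a group are separate cultures, so a p-value covers no more than the variation among these libraries, possibly technical.

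Liver cells make fatty acids from citrate and acetate through acetyl-CoA and malonyl-CoA, then elongate and desaturate them. Acyl-CoA synthetases activate free fatty acids, which are either built into triglycerides and kept in lipid droplets or carried into mitochondria and peroxisomes for β-oxidation. The nuclear receptor PPARα and its coactivator PGC-1α drive many oxidation genes, whereas SREBP-1c and ChREBP drive many synthesis genes. Malonyl-CoA ties the branches together, since it is both the building block of synthesis and an inhibitor of carnitine-dependent fatty acid import.

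The libraries held between 30955080 and 42094144 estimated counts, and 1 count was worth 0.0238 to 0.032 CPM, the counts scaled to library size with TMM factors. The targeted transcripts were lower in DKD cells under both conditions. MACROH2A1 averaged 55.5 ± 10.1 CPM in TNFα-treated DKD cells, 46.2 ± 12.2 in untreated DKD cells, 268 ± 11.04 in TNFα-treated CTL cells and 236 ± 27.4 in untreated CTL cells. MACROH2A2 averaged 3.96 ± 0.682 CPM in TNFα-treated DKD cells, 5.11 ± 0.7898 in untreated DKD cells, 46.4 ± 5.09 in TNFα-treated CTL cells and 57.8 ± 2.85 in untreated CTL cells (SD, n = 3 each). All 8 hepatocyte markers stood above 1 CPM in every group. Of 5 adipocyte markers, CIDEA and FABP4 had no count, and PLIN1 averaged above 1 CPM in untreated DKD cells alone. The 5 summed to at most 3.8 CPM in any library. The DKD libraries numbered 1 stood apart on the first principal component, which held 33% of the variance. They lay at -53.9 with TNFα and -83.7 without it, and the other 10 libraries between -18.2 and 41.5. Libraries with the same number deviated together across the groups, and a fit with the replicate number as a block added calls and ended none. The calls it added are given for each role. Differences are log2 fold changes from edgeR's quasi-likelihood test over all genes tested. A gene was called at a Benjamini-Hochberg adjusted p under 0.05, and ± after a log2 fold change is its standard error (SE).

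Directions among the members differed by role. With TNFα, 8 of 10 synthesis genes had a negative log2 fold change in DKD against CTL cells, while 5 of 6 uptake and activation genes, 9 of 12 storage genes and 7 of 10 oxidation genes had a positive one. Of all 16118 genes tested, 8096 had a positive one. Of 42 members tested, 7 were called higher and 2 lower in DKD cells with TNFα, against 3.94% and 2.3% of all genes tested. Without TNFα, 5 were higher and 2 lower in DKD cells, beside 3.13% and 1.86% of all genes. TNFα itself raised 1 member and lowered 1 in DKD cells (all genes 1.54% and 0.254%). In CTL cells it raised 3 and lowered 1 (all genes 1.9% and 0.726%). Averaged over treatments, 10 members were higher and 5 lower in DKD cells (all genes 8.49% and 6.04%). Averaged over lines, 5 were higher and 4 lower with TNFα (all genes 5.02% and 2.2%).

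With the replicate number as a block, 21 members were called in DKD against CTL cells with TNFα, where 19.4% of all genes were called, and 18 without it, where 16.5% were. For TNFα the same fit called 7 members in DKD cells (all genes 7.67%) and 19 in CTL cells (all genes 12.6%). It called 28 members in DKD cells as the average over treatments (all genes 31.2%) and 20 with TNFα as the average over lines (all genes 21.2%). The 3 DKD libraries lay wholly above or below the 3 CTL libraries for 23 members with TNFα and 19 without it, beside 25.4% and 21.7% of all genes. TNFα and untreated libraries were apart in this way for 6 members in DKD cells and 20 in CTL cells, beside 12.3% and 25.1%. All 43 members together took 0.843% to 0.95% of the counts in TNFα-treated DKD libraries, 0.996% to 1.09% in untreated DKD, 0.971% to 1.08% in TNFα-treated CTL and 1.21% to 1.33% in untreated CTL libraries.

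**Figure D1:**
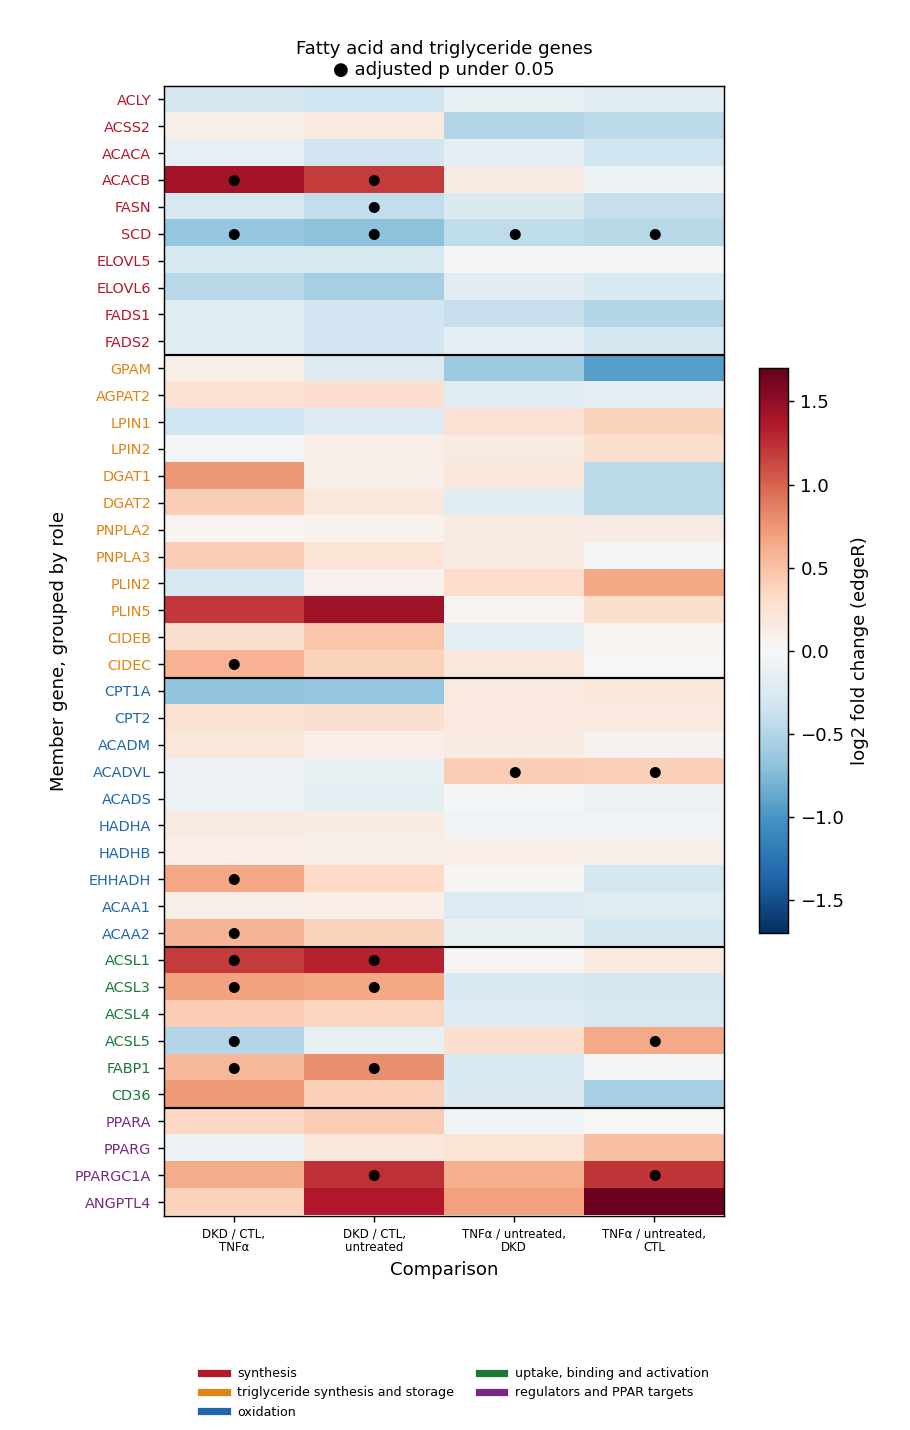
Log2 fold changes of the 42 tested members, 1 row per gene grouped by role, for DKD against CTL with and without TNFα and for TNFα against untreated in each line; colour gives the fold change and a mark gives an adjusted p under 0.05. Synthesis genes are negative in the columns of DKD against CTL, apart from ACACB and ACSS2, and 5 of the 6 uptake and activation genes are positive there.

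SCD and FABP1 were called in opposite directions in DKD cells, under both conditions, and their promoter windows are shown for that reason. Each runs from 250 bases before to 50 bases after the RefSeq start site on GRCh38.p14, SCD at chr10:100346983-100347282 on the plus strand and FABP1 at chr2:88128013-88128312 on the minus strand. Capitals mark the only match, on either strand, to an NF-κB-type pattern (GGGA, any 4 bases, then CC), which starts 15 bases before the start site in SCD and 41 bases before it in FABP1.
SCD: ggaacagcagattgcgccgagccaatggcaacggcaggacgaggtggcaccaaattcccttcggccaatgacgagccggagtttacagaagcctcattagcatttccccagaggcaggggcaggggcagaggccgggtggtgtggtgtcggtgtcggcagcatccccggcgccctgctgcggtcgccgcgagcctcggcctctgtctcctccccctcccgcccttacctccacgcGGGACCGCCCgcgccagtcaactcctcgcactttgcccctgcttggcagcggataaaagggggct
FABP1: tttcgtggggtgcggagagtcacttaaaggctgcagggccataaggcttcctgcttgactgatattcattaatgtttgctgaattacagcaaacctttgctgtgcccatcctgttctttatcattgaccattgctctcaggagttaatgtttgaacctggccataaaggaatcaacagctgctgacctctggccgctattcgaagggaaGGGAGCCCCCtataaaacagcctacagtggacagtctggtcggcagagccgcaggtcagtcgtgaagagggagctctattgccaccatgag
Such a match is common: it was in 25.1% of 27305 promoter windows of this length and in 10 of the 37 members that have one, SCD, ACLY, ACSS2, PLIN2, PLIN5, CIDEB, ACADS, FABP1, PPARA and ANGPTL4. The E-box CACGTG was in 7.43% of all windows and in ELOVL5, PLIN2 and PPARGC1A. The PPARGC1A match, at chr4:24473023, lies far upstream of the gene position given below, which ends at 23904089 on the minus strand. The sterol element TCACNCCAC was in 1.15% of windows and in PNPLA2 alone among the members. A repeat of AGGTCA with 1 base between copies, the PPAR type, was in 0.022% of windows and in no member. These matches describe letters in the windows, and binding was not measured.

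Most synthesis genes had lower values in DKD cells, and SCD was called under both conditions. The median log2 fold change of the 10 genes was -0.24 with TNFα and -0.33 without it, beside 0.00 and 0.01 over all genes tested. Without untreated DKD replicate 1 the median without TNFα was -0.18, and the log2 fold changes of ACLY and FADS1 in untreated cells were -0.17 and -0.18, against -0.34 and -0.32 with all libraries. That fit kept untreated CTL replicate 1, in which both genes were also lower. In untreated replicates 2 and 3 ACLY averaged 897 CPM in DKD and 1072 in CTL cells, and FADS1 433 and 506. SCD, the desaturase that makes oleate and palmitoleate (chr10:100347124-100364834, plus strand, GRCh38), was lower with the knock-down and with TNFα alike. It had 2537, 2272 and 2013 CPM in TNFα-treated DKD cells, 3089, 3213 and 2866 in untreated DKD cells, 3938, 3538 and 3264 in TNFα-treated CTL cells and 4989, 5201 and 4720.3 in untreated CTL cells. The 4 groups did not overlap, and DKD cells with TNFα were lowest. SCD fell in DKD cells with TNFα (log2 fold change -0.65 ± 0.09, adjusted p = 0.00191) and without it (log2 fold change -0.70 ± 0.09, adjusted p = 0.00154). TNFα also lowered it in DKD cells (log2 fold change -0.43 ± 0.09, adjusted p = 0.0467) and in CTL cells (log2 fold change -0.47 ± 0.09, adjusted p = 0.0228).

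FASN, the synthase that builds palmitate, had 988, 765 and 935 CPM in TNFα-treated DKD cells, 1123, 1003 and 1059.7 in untreated DKD cells, 1157, 1007 and 1073 in TNFα-treated CTL cells and 1422, 1548 and 1268 in untreated CTL cells. Every untreated CTL library was above all the others. FASN was lower in untreated DKD than in untreated CTL cells (log2 fold change -0.41 ± 0.11, adjusted p = 0.0499), and lower with TNFα as the average over lines, at -0.32 ± 0.07 (adjusted p = 0.0258). ELOVL5, which elongates polyunsaturated fatty acids, had 161, 171 and 145 CPM in TNFα-treated DKD cells, 156, 182 and 152 in untreated DKD cells, 196, 208 and 174 in TNFα-treated CTL cells and 196, 199 and 195 in untreated CTL cells. In both conditions the DKD libraries were all below the CTL libraries, and the average difference was -0.27 ± 0.07 (adjusted p = 0.0211). FADS1, the delta-5 desaturase, had 289, 331 and 286 CPM in TNFα-treated DKD cells, 318, 463 and 402 in untreated DKD cells, 369, 347 and 327 in TNFα-treated CTL cells and 467, 537 and 476 in untreated CTL cells. In CTL cells the TNFα libraries were all below the untreated ones, while in DKD cells they overlapped. FADS1 was lower with TNFα when averaged over lines, at -0.44 ± 0.09 (adjusted p = 0.0112). FADS1 overlaps FADS2 on the opposite strand, and the strand setting of the counting is not given, so their counts may be mixed.

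ACACB went the other way. It encodes the acetyl-CoA carboxylase of the mitochondrial surface, whose malonyl-CoA restrains fatty acid import (chr12:109116595-109268226, plus strand), and it had 34.1, 32.2 and 32.3 CPM in TNFα-treated DKD cells, 32.8, 27.97 and 29.1 in untreated DKD cells, 11, 12.6 and 13.6 in TNFα-treated CTL cells and 12.1, 13.8 and 13.7 in untreated CTL cells. No DKD library came near a CTL library, whatever the treatment. The gene rose 2.65-fold in DKD cells with TNFα (log2 fold change 1.41 ± 0.11, adjusted p = 4.86e-05) and 2.27-fold without it (log2 fold change 1.18 ± 0.11, adjusted p = 0.000181). Its cytosolic counterpart ACACA, which supplies malonyl-CoA to FASN, averaged 283 ± 16.6 CPM in TNFα-treated DKD cells, 316 ± 64.8 in untreated DKD cells, 312 ± 15.4 in TNFα-treated CTL cells and 395 ± 39.6 in untreated CTL cells (SD, n = 3 each) and was called with the replicate block alone, lower in DKD cells as the average over treatments (adjusted p = 0.0455). ACACB counts per 100 ACACA counts, uncorrected for transcript length, were 11.7 ± 0.8399 in TNFα-treated DKD cells, 9.899 ± 3.14 in untreated DKD cells, 3.99 ± 0.606 in TNFα-treated CTL cells and 3.35 ± 0.144 in untreated CTL cells.

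Of the other synthesis genes, ACLY and ELOVL6 were called with the replicate block alone, and FADS2 and ACSS2 in no comparison. ACLY, which makes cytosolic acetyl-CoA from citrate, averaged 734 ± 76.8 CPM in TNFα-treated DKD cells, 802 ± 186 in untreated DKD cells, 897 ± 65.6 in TNFα-treated CTL cells and 1015 ± 136 in untreated CTL cells. ELOVL6, the elongase of saturated and monounsaturated chains, averaged 19.7 ± 6.09 CPM in TNFα-treated DKD cells, 22.2 ± 8.76 in untreated DKD cells, 27.3 ± 1.81 in TNFα-treated CTL cells and 32.7 ± 3.12 in untreated CTL cells. Both had their lowest means in DKD cells with TNFα, though libraries of DKD and CTL cells overlapped for ACLY without TNFα. FADS2, the delta-6 desaturase, and ACSS2, which makes acetyl-CoA from acetate, had log2 fold changes of -0.33 and 0.16 in untreated DKD against CTL cells. Without untreated DKD replicate 1 these were -0.08 and 0.58, but that fit kept untreated CTL replicate 1, which was also low. In untreated replicates 2 and 3 FADS2 averaged 288 CPM in DKD and 326 in CTL cells. ACSS2 averaged 228 CPM in DKD and 185 in CTL cells there. With the replicate block, ACLY and ELOVL5 were also called lower in DKD cells with TNFα (adjusted p = 0.0306 and 0.0105) and without it (0.0156 and 0.0127), FADS1 without it (0.0436), and FASN and FADS1 lower with TNFα in CTL cells (0.0196 and 0.00832). It also called FADS1 lower with TNFα in DKD cells (0.041). As the average over treatments it called 7 of the 10 genes lower and ACACB higher in DKD cells, where 31.2% of all genes were called, and it added ACLY (adjusted p = 0.00193), ELOVL6 (0.00957) and FADS1 (0.0131) besides ACACA. The 10 genes summed to 4783 to 5239 CPM in TNFα-treated DKD libraries, 5799.9 to 6834 in untreated DKD, 6394 to 7221 in TNFα-treated CTL and 8544 to 9690.4 in untreated CTL libraries. Without SCD they summed to 2702 to 2830.0 CPM in TNFα-treated DKD, 2711 to 3621 in untreated DKD, 3129 to 3284 in TNFα-treated CTL and 3738 to 4489.8 in untreated CTL libraries.

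The SCD and ACACB calls for the knock-down held without any single library. The SCD call for TNFα in CTL cells was lost without TNFα-treated CTL replicates 2 or 3, or untreated CTL replicates 1, 2 or 3 (adjusted p up to 0.105), and in DKD cells without TNFα-treated DKD replicates 2 or 3, or untreated DKD replicates 2 or 3, or TNFα-treated CTL replicates 2 or 3, or untreated CTL replicates 1, 2 or 3 (up to 0.183) and in the fit of only the groups compared (0.237). The FASN call in untreated DKD cells, just inside the threshold, was lost without TNFα-treated DKD replicate 3, or untreated DKD replicates 2 or 3, or TNFα-treated CTL replicates 1, 2 or 3, or untreated CTL replicates 1, 2 or 3 (up to 0.19), in the fit of only the groups compared (0.0942) and with no filter on low counts (0.0553). Its average with TNFα was lost without untreated DKD replicate 3, or TNFα-treated CTL replicates 2 or 3, or untreated CTL replicates 1 or 2 (up to 0.0771), and the ELOVL5 average without TNFα-treated CTL replicate 2, or untreated CTL replicate 2 (up to 0.0581).

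**Figure D2:**
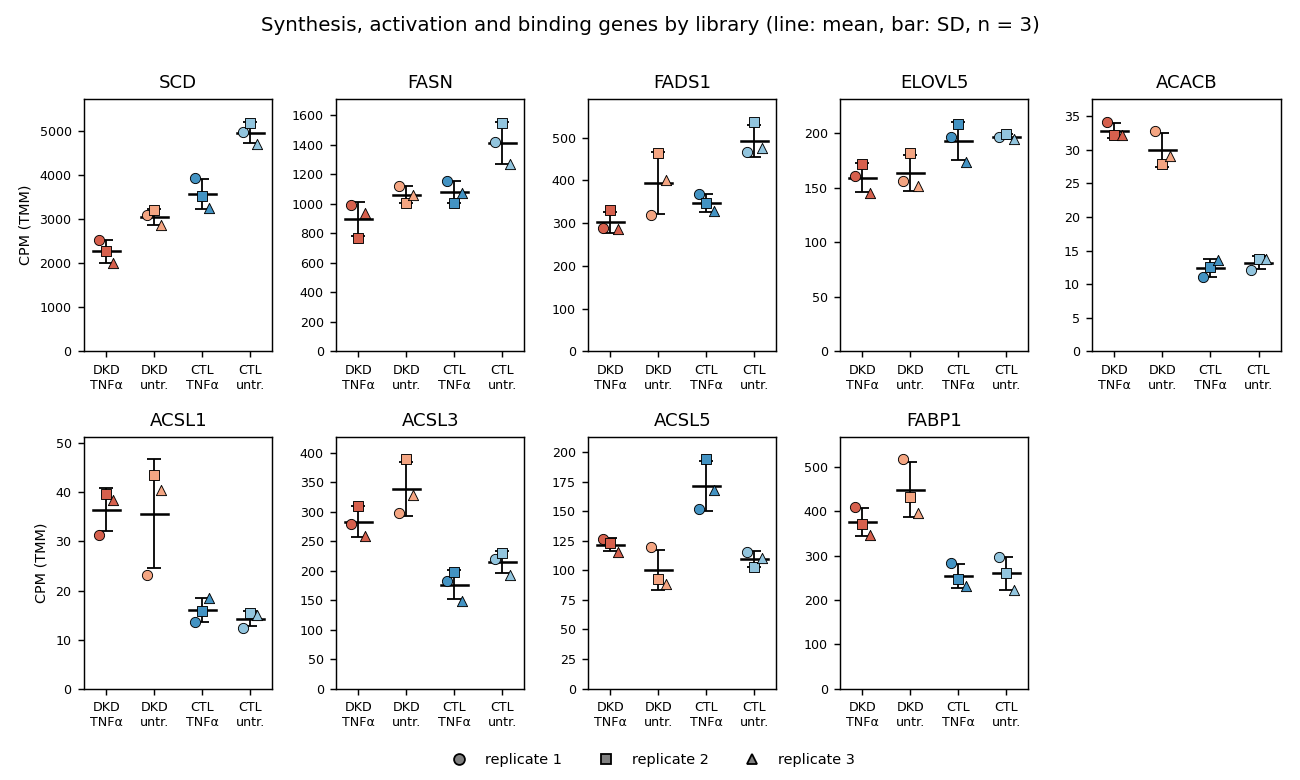
CPM (TMM-scaled, linear axes from 0) of synthesis and activation genes in each library, with DKD groups left of CTL groups and TNFα left of untreated; points are libraries with a shape for each replicate number, lines are means and bars are SD (n = 3). SCD steps down over the groups to 2013 CPM in the lowest DKD library with TNFα, and ACACB, ACSL1, ACSL3 and FABP1 lie higher in all DKD libraries than in the CTL libraries of the same treatment.

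Of the 6 genes that take up, bind and activate fatty acids, ACSL1, ACSL3 and FABP1 were called higher in DKD cells both with and without TNFα. Of all genes tested, 3.94% were called higher with TNFα and 3.13% without it. The median log2 fold change of the 6 was 0.62 with TNFα and 0.53 without, beside 0.00 and 0.01 over all genes tested. Acyl-CoA synthetases couple fatty acids to CoA, which commits them to a metabolic fate. ACSL1, the isoform typical of liver and fat (chr4:184755595-184826818, minus strand), had 31.4, 39.6 and 38.5 CPM in TNFα-treated DKD cells, 23.1, 43.6 and 40.4 in untreated DKD cells, 13.6, 15.8 and 18.6 in TNFα-treated CTL cells and 12.4, 15.4 and 14.9 in untreated CTL cells. All DKD libraries were above all CTL libraries, although DKD replicate 1 was the lowest DKD library in both conditions. The rise was 2.28-fold with TNFα (log2 fold change 1.19 ± 0.22, adjusted p = 0.0079) and 2.51-fold without it (log2 fold change 1.33 ± 0.22, adjusted p = 0.00527).

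ACSL3, which is found on the endoplasmic reticulum and lipid droplets, had 279, 310.2 and 258 CPM in TNFα-treated DKD cells, 298, 388 and 328 in untreated DKD cells, 182, 198 and 149 in TNFα-treated CTL cells and 220.3, 229 and 193 in untreated CTL cells. Every DKD library was above every CTL library. The differences were 0.68 ± 0.13 (adjusted p = 0.00985) with TNFα and 0.66 ± 0.13 (adjusted p = 0.0136) without it. FABP1, the liver fatty acid binding protein (chr2:88122982-88128116, minus strand), had 409, 371 and 346 CPM in TNFα-treated DKD cells, 517, 433 and 396 in untreated DKD cells, 283, 248 and 230.4 in TNFα-treated CTL cells and 297, 259.6 and 223 in untreated CTL cells. Here too the lines were fully apart within and across treatments. FABP1 rose in DKD cells by 0.56 ± 0.13 (adjusted p = 0.0273) with TNFα and by 0.79 ± 0.13 (adjusted p = 0.00538) without it. The sum of the 8 hepatocyte markers (ALB, APOA1, APOB, TTR, SERPINA1, HNF4A, TF and AFP) was also higher in DKD cells within each treatment. They summed to 20800 to 27500 CPM in TNFα-treated DKD libraries, against 17700 to 19600 in TNFα-treated CTL libraries, and to 27400 to 40700 in untreated DKD, against 22100 to 23800 in untreated CTL libraries. The markers were not compared 1 by 1. Their part in the FABP1 result was not tested. In bulk libraries such as these, more cells of a type and more RNA per cell cannot be told apart.

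ACSL5, a synthetase of mitochondria and the endoplasmic reticulum, had 126, 123 and 115 CPM in TNFα-treated DKD cells, 119.8, 92.5 and 88.6 in untreated DKD cells, 152, 194 and 168 in TNFα-treated CTL cells and 116, 102 and 110.1 in untreated CTL cells. The TNFα-treated CTL libraries were above all other libraries. TNFα raised ACSL5 in CTL cells (log2 fold change 0.64 ± 0.12, adjusted p = 0.0207), and with TNFα it was lower in DKD than in CTL cells (log2 fold change -0.49 ± 0.12, adjusted p = 0.0391). In DKD cells the TNFα difference was 0.28, with a 95% interval of 0.00 to 0.55, and the difference between the lines' responses was -0.37, with a 95% interval of -0.75 to 0.02, not called. Its gene overlaps ZDHHC6 on the opposite strand. ACSL4, which prefers arachidonate, averaged 323 ± 59.97 CPM in TNFα-treated DKD cells, 375 ± 62.1 in untreated DKD cells, 240.3 ± 39.7 in TNFα-treated CTL cells and 290.4 ± 34.7 in untreated CTL cells. CD36, a fatty acid translocase of the cell surface, averaged 26.03 ± 14.4 CPM in TNFα-treated DKD cells, 30.9 ± 10.3 in untreated DKD cells, 15.8 ± 5.63 in TNFα-treated CTL cells and 23.3 ± 10.7 in untreated CTL cells, with replicate 1 highest in each group. With the replicate block, ACSL4 and CD36 were also called higher in DKD cells with TNFα (adjusted p = 0.00477 and 0.00261) and without it (0.0123 and 0.0195), as well as on average (0.000521 and 0.000449). That fit called 19.4%, 16.5% and 31.2% of all genes in these comparisons. Without the block, the CD36 difference in DKD cells with TNFα was 0.72, and 0.17 without TNFα-treated DKD replicate 1. In untreated cells it was 0.41, and 0.11 without untreated DKD replicate 1. These fits kept CTL replicate 1, which was also high, so the smaller values do not compare like replicates. In replicates 2 and 3 CD36 averaged 17.8 CPM in TNFα-treated DKD cells and 12.6 in TNFα-treated CTL cells. Without TNFα these means were 25.0 CPM in DKD and 17.2 in CTL cells. The block also called ACSL3, ACSL4 and CD36 lower with TNFα in CTL cells (0.0366, 0.049 and 0.0132) and FABP1 lower with TNFα in DKD cells (0.0142), and all 4 lower with TNFα as the average over lines (0.00564 for ACSL3, 0.0115 for ACSL4, 0.00358 for CD36 and 0.0203 for FABP1). There it called 12.6%, 7.67% and 21.2% of all genes. ACSL1 counts per 100 ACSL5 counts, uncorrected for length, were 30.1 ± 4.58 in TNFα-treated DKD cells, 37.4 ± 15.7 in untreated DKD cells, 9.4 ± 1.49 in TNFα-treated CTL cells and 13.1 ± 2.17 in untreated CTL cells.

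The ACSL1 calls held without any single library, with adjusted p of at most 0.0459 with TNFα and 0.0292 without it. In the fit of only the groups compared, the calls without TNFα were lost for ACSL1 (adjusted p = 0.0612), ACSL3 (0.0631) and FABP1 (0.052). FABP1 with TNFα was no longer called without TNFα-treated DKD replicates 1 or 2, or TNFα-treated CTL replicates 2 or 3 (up to 0.116), and ACSL3 without TNFα was lost without untreated DKD replicate 2, or untreated CTL replicate 3 (up to 0.0736). The lower ACSL5 in DKD cells with TNFα was lost without TNFα-treated DKD replicates 1, 2 or 3, or untreated DKD replicate 2, or TNFα-treated CTL replicates 2 or 3, or untreated CTL replicates 1, 2 or 3 (up to 0.162). Its rise with TNFα in CTL cells was lost without TNFα-treated CTL replicates 2 or 3, or untreated CTL replicates 1, 2 or 3 (up to 0.0969).

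Of 12 storage genes, CIDEC was called higher in DKD cells with TNFα, where 6.24% of all genes were called, and none without TNFα. CIDEC and PLIN5 were called as the average over treatments, where 14.5% of all genes were. With the replicate block 6 of the 12 were called with TNFα (all genes 19.4%), 2 without it (all genes 16.5%) and 6 on average (all genes 31.2%). CIDEC, which promotes fusion and growth of lipid droplets, had 18.1, 18.1 and 19.01 CPM in TNFα-treated DKD cells, 12.6, 17.96 and 17.6 in untreated DKD cells, 11.2, 12.7 and 12.7 in TNFα-treated CTL cells and 11.3, 12.8 and 12.6 in untreated CTL cells. With TNFα the DKD libraries were all above the CTL libraries, and without it 1 DKD library, replicate 1, lay within the CTL range. CIDEC was higher in DKD cells with TNFα (log2 fold change 0.59 ± 0.14, adjusted p = 0.028) and on average (log2 fold change 0.49 ± 0.10, adjusted p = 0.00635). Without TNFα it was called with the block (adjusted p = 0.0267) and without untreated DKD replicate 1 (0.0133). PLIN5, a droplet coat protein that tethers droplets to mitochondria, was a low-abundance transcript. It had 4.096, 1.95 and 2.04 CPM in TNFα-treated DKD cells, 3.85, 1.93 and 2.03 in untreated DKD cells, 1.54, 0.953 and 1.03 in TNFα-treated CTL cells and 1.22, 0.673 and 0.9598 in untreated CTL cells. All DKD libraries were above all CTL libraries, and replicate 1 was highest in each group. The 5 adipocyte markers summed to 0.769 to 2.72 CPM in TNFα-treated DKD libraries, against 0.807 to 1.07 in TNFα-treated CTL libraries, and to 1.38 to 3.8 CPM in untreated DKD, against 0.792 to 1.19 in untreated CTL libraries, with CIDEA and FABP4 at 0 counts throughout. PLIN1, also among these 5 markers, had 9 to 69 counts in TNFα-treated DKD libraries and 0 to 6 in TNFα-treated CTL libraries. Without TNFα it had 31 to 104 in DKD and 8 to 19 in CTL libraries, and replicate 1 had the highest CPM in each group. It was called higher in DKD cells as the average over treatments (log2 fold change 2.80 ± 0.71, adjusted p = 0.0225). The part of these markers in the CIDEC and PLIN5 values was not tested. PLIN5 was called higher in DKD cells as the average over treatments (log2 fold change 1.32 ± 0.28, adjusted p = 0.00853) and, with the replicate block, under each condition (adjusted p = 0.00144 with TNFα and 0.000609 without).

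The enzymes that assemble and break down triglycerides were called with the replicate block alone or not at all. GPAM, the mitochondrial acyltransferase of the first step, averaged 277 ± 131 CPM in TNFα-treated DKD cells, 424 ± 153 in untreated DKD cells, 259 ± 99.4 in TNFα-treated CTL cells and 497 ± 118 in untreated CTL cells (SD, n = 3 each). With the block it was called lower with TNFα in DKD cells (adjusted p = 0.0114) and in CTL cells (0.000813), and as the average over lines (0.000146). Without the block, its TNFα difference in DKD cells was -0.61, -1.06 without TNFα-treated DKD replicate 1 and -0.30 without untreated DKD replicate 1. Each omission kept the high replicate 1 of the other DKD group. In replicates 2 and 3 GPAM averaged 203 CPM in TNFα-treated DKD and 336 in untreated DKD cells. DGAT1, which adds the last acyl chain, averaged 120.4 ± 20.7 CPM in TNFα-treated DKD cells, 105 ± 31.2 in untreated DKD cells, 72.1 ± 21.1 in TNFα-treated CTL cells and 99.2 ± 19.6 in untreated CTL cells. With TNFα every DKD library was above every CTL library for DGAT1, at 0.74 ± 0.27 (adjusted p = 0.149), and the block gave adjusted p = 0.000242 there, 0.000625 for the higher average in DKD cells and 0.00603 for a lower value with TNFα in CTL cells. DGAT2, the other enzyme of that step, averaged 73.4 ± 14.3 CPM in TNFα-treated DKD cells, 84.7 ± 9.597 in untreated DKD cells, 54.9 ± 4.28 in TNFα-treated CTL cells and 74.8 ± 1.99 in untreated CTL cells, and the block called it higher in DKD cells with TNFα (0.0207) and lower with TNFα in CTL cells (0.0193), likewise for the averages (0.0132 for DKD and 0.00969 for TNFα). PLIN2, the main droplet coat protein of hepatocytes, averaged 221 ± 32.9 CPM in TNFα-treated DKD cells, 178 ± 73.2 in untreated DKD cells, 266 ± 22.5 in TNFα-treated CTL cells and 169 ± 32.6 in untreated CTL cells, and the block called it higher with TNFα in CTL cells (0.015) and as the average over lines (0.00635). DGAT1 overlaps HSF1 on the opposite strand.

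Of the remaining storage genes, LPIN1 and LPIN2, the phosphatidate phosphatases, averaged between 62.8 CPM (LPIN2, untreated CTL) and 105 CPM (LPIN1, TNFα-treated CTL). The block called both higher with TNFα in CTL cells (adjusted p = 0.0196 for LPIN1 and 0.00746 for LPIN2) and LPIN1 lower in DKD cells with TNFα (0.0254). As averages it called both higher with TNFα (0.00457 for LPIN1 and 0.00267 for LPIN2) and LPIN1 lower in DKD cells (0.00748). PNPLA3, a droplet-bound lipase, was called higher in DKD cells with TNFα by the block alone (0.0366), as was its average (0.0189). With TNFα it had 61.4 CPM in DKD replicate 1 and averaged 39.3 in DKD replicates 2 and 3, against 39.3 and 32.7 in CTL cells. Without TNFα these values were 54.5 and 35.6 CPM in DKD cells and 37.3 and 35.0 in CTL cells, so the difference lay mostly in replicate 1. PNPLA2, the main triglyceride lipase, had a log2 difference between DKD and CTL cells of 0.05, with a 95% interval of -0.42 to 0.53 with TNFα and 0.05, with a 95% interval of -0.42 to 0.53 without it. AGPAT2, an acyltransferase of the next assembly step, and CIDEB, a droplet protein of lipoprotein secretion, ranged over 12.5 to 44.6 CPM and 13.9 to 34.3 CPM. The CIDEC call with TNFα was lost without TNFα-treated DKD replicates 1, 2 or 3, or TNFα-treated CTL replicates 1, 2 or 3 (adjusted p up to 0.118) and with no filter on low counts (0.0564).

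Oxidation genes were called in both directions. EHHADH, the bifunctional enzyme of peroxisomal β-oxidation and a classic PPARα target, had 95.02, 76.4 and 73.2 CPM in TNFα-treated DKD cells, 80.96, 80.7 and 80.2 in untreated DKD cells, 56.3, 47.8 and 50.8 in TNFα-treated CTL cells and 65.8, 57.1 and 67.98 in untreated CTL cells. All DKD libraries were above all CTL libraries. EHHADH was higher in DKD cells with TNFα (log2 fold change 0.66 ± 0.11, adjusted p = 0.0049), with a difference of 0.34 ± 0.11 (adjusted p = 0.131) without it. ACAA2, the mitochondrial thiolase of the last step, had 198, 141 and 143 CPM in TNFα-treated DKD cells, 200.1, 159.5 and 161 in untreated DKD cells, 114, 101 and 109 in TNFα-treated CTL cells and 139, 125 and 135 in untreated CTL cells. Again the lines did not overlap, and replicate 1 was highest in each group. ACAA2 was higher in DKD cells with TNFα (log2 fold change 0.57 ± 0.14, adjusted p = 0.0316).

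The carnitine shuttle split. CPT1A, the liver isoform of the enzyme that malonyl-CoA inhibits and the entry step of the shuttle (chr11:68754620-68844410, minus strand), had 27.6, 45.4 and 44.996 CPM in TNFα-treated DKD cells, 27.1, 36.2 and 42.3 in untreated DKD cells, 53.3, 64.5 and 69.6 in TNFα-treated CTL cells and 45.2, 58.3 and 62.3 in untreated CTL cells. Within each treatment every DKD library was below every CTL library, and CPT1A was lower in DKD cells as the average over treatments (log2 fold change -0.66 ± 0.15, adjusted p = 0.0156). CPT2, the inner-membrane enzyme of the shuttle, had 45.9, 39.7 and 41.8 CPM in TNFα-treated DKD cells, 40.4, 36.8 and 36.8 in untreated DKD cells, 36.5, 32.9 and 36.8 in TNFα-treated CTL cells and 32.4, 29.6 and 32.6 in untreated CTL cells. The DKD libraries were above the CTL libraries within each treatment, and the average difference was 0.27 ± 0.06 (adjusted p = 0.0181). With the block, CPT1A was called lower and CPT2 higher in DKD cells under each condition, with adjusted p for CPT1A of 0.000375 with TNFα and 0.000605 without, and for CPT2 of 0.0147 with TNFα and 0.0157 without.

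ACADVL, the very long-chain acyl-CoA dehydrogenase that starts mitochondrial β-oxidation, rose with TNFα in both lines. It had 205, 217 and 236 CPM in TNFα-treated DKD cells, 153, 169 and 171 in untreated DKD cells, 219, 234 and 252 in TNFα-treated CTL cells and 169, 178 and 186 in untreated CTL cells. In both lines all TNFα libraries were above all untreated libraries. TNFα raised ACADVL in DKD cells (log2 fold change 0.41 ± 0.08, adjusted p = 0.0302) and in CTL cells (log2 fold change 0.40 ± 0.08, adjusted p = 0.027). ACAA1, the peroxisomal thiolase, had 285, 241 and 255 CPM in TNFα-treated DKD cells, 327, 287 and 298 in untreated DKD cells, 245, 237 and 247 in TNFα-treated CTL cells and 279, 276 and 285 in untreated CTL cells. Within each line its TNFα libraries were below the untreated ones, and the average over lines was -0.22 ± 0.05 (adjusted p = 0.0348). With the block, ACAA1 was called lower with TNFα in DKD cells (adjusted p = 0.0414) and in CTL cells (0.045). The block also called EHHADH and ACAA2 lower with TNFα in CTL cells (0.0427 and 0.0408) and, as averages over lines, ACAA2 lower (0.0294) and CPT2 higher (0.026). ACADVL overlaps DLG4 and ACAA1 overlaps DLEC1, both on opposite strands.

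The other 4 oxidation genes were not called without the block. ACADM and ACADS, the medium-chain and short-chain dehydrogenases, ranged over 96.4 to 129 CPM and 15.98 to 22.4 CPM. HADHA and HADHB, the subunits of the mitochondrial trifunctional protein, ranged over 369.9 to 450.0 CPM and 195 to 272 CPM. For HADHA the difference between untreated DKD and CTL cells was 0.13, with a 95% interval of -0.01 to 0.28. With the block, EHHADH and ACAA2 were also called higher in DKD cells without TNFα (adjusted p = 0.0205 and 0.0117). As averages over treatments it added ACADM (0.0299) and HADHA (0.0169), higher in DKD cells, and ACADVL (0.0359), lower. The EHHADH call held without any single library, with adjusted p of at most 0.0307. ACAA2 with TNFα was lost without TNFα-treated DKD replicate 1, or TNFα-treated CTL replicates 1, 2 or 3, or untreated CTL replicate 3 (up to 0.13) and in the fit of only the groups compared (0.0714), and the CPT2 average without TNFα-treated CTL replicate 2, or untreated CTL replicate 2 (up to 0.0515).

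For ACADVL, the call in CTL cells was lost without TNFα-treated DKD replicate 2, or TNFα-treated CTL replicates 1, 2 or 3, or untreated CTL replicates 1, 2 or 3 (adjusted p up to 0.122) and in DKD cells without TNFα-treated DKD replicates 2 or 3, or untreated DKD replicates 1, 2 or 3, or TNFα-treated CTL replicates 1 or 2, or untreated CTL replicates 2 or 3 (up to 0.203), while the block gave 0.000601 in DKD cells and 0.000538 in CTL cells. With no filter on low counts it was lost in both lines (0.0646 in DKD and 0.0621 in CTL cells), and in DKD cells also in the fit of only the groups compared (0.29). The ACAA1 average was lost without TNFα-treated DKD replicates 2 or 3, or untreated DKD replicate 3, or TNFα-treated CTL replicates 2 or 3, or untreated CTL replicates 1, 2 or 3 (up to 0.0964) and with no filter on low counts (0.0534).

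Among the regulators, PPARGC1A, which encodes the coactivator PGC-1α (chr4:23755041-23904089, minus strand), was called both with the knock-down and with TNFα. It had 43.7, 37.9 and 33.9 CPM in TNFα-treated DKD cells, 33.7, 22.7 and 19.9 in untreated DKD cells, 24.3, 26.7 and 23.8 in TNFα-treated CTL cells and 12.01, 10.5 and 9.72 in untreated CTL cells. Untreated CTL cells were lowest and DKD cells with TNFα highest, while untreated DKD and TNFα-treated CTL libraries overlapped. In CTL cells TNFα raised it 2.32-fold (log2 fold change 1.22 ± 0.19, adjusted p = 0.00591), and in untreated cells it was 2.37-fold higher in DKD than in CTL cells (log2 fold change 1.24 ± 0.19, adjusted p = 0.00278). With TNFα the difference between DKD and CTL cells was 0.63 ± 0.18 (adjusted p = 0.0711), and within DKD cells the TNFα difference was 0.60 ± 0.18 (adjusted p = 0.185). With the replicate block these also passed, with adjusted p = 0.00591 and 0.0126.

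PPARG, the receptor PPARγ of fat storage, had 40.3, 39.5 and 41.3 CPM in TNFα-treated DKD cells, 42.1, 29.2 and 31.6 in untreated DKD cells, 40.9, 44.3 and 43.99 in TNFα-treated CTL cells and 35.6, 27.1 and 27.8 in untreated CTL cells. In CTL cells all TNFα libraries were above all untreated libraries, and in DKD cells the untreated replicate 1 was above the TNFα libraries. It was called higher with TNFα as the average over lines, at 0.37 ± 0.10 (adjusted p = 0.0496), and with the block also in CTL cells (0.0167). ANGPTL4, an inhibitor of lipoprotein lipase and a PPAR target, was near the detection floor, at 0.1998, 0.3604 and 0.462 CPM in TNFα-treated DKD cells, 0.301, 0.166 and 0.167 in untreated DKD cells, 0.268, 0.269 and 0.23999 in TNFα-treated CTL cells and 0.0486, 0.0961 and 0.09598 in untreated CTL cells. These values rest on 8 to 19 counts in TNFα-treated DKD libraries, 7 to 11 in untreated DKD, 10 to 11 in TNFα-treated CTL and 2 to 4 in untreated CTL libraries. ANGPTL4 was called higher with TNFα as the average over lines, at 1.18 ± 0.30 (adjusted p = 0.0372), but not with DESeq2 (0.0648). PPARA, the receptor of the fasting response, averaged 63.5 ± 29.5 CPM in TNFα-treated DKD cells, 66.99 ± 40.5 in untreated DKD cells, 49.8 ± 10.8 in TNFα-treated CTL cells and 49.5 ± 10.03 in untreated CTL cells (SD, n = 3 each), with a difference between untreated DKD and CTL cells of 0.44, with a 95% interval of -0.45 to 1.32. PDK4, which inhibits pyruvate dehydrogenase and is a PPAR target, had at most 3 counts in any library and was not tested.

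The PPARGC1A calls held without any single library, with adjusted p of at most 0.0443 for TNFα in CTL cells and 0.0203 for untreated DKD cells. The PPARG average was lost without TNFα-treated DKD replicates 1, 2 or 3, or untreated DKD replicates 2 or 3, or TNFα-treated CTL replicates 1, 2 or 3, or untreated CTL replicates 2 or 3 (up to 0.131), and the ANGPTL4 average without TNFα-treated DKD replicates 2 or 3, or untreated DKD replicates 2 or 3, or TNFα-treated CTL replicates 1, 2 or 3, or untreated CTL replicates 1, 2 or 3 (up to 0.0999). With no filter on low counts both averages were lost (0.0665 for PPARG and 0.0704 for ANGPTL4).

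**Figure D3:**
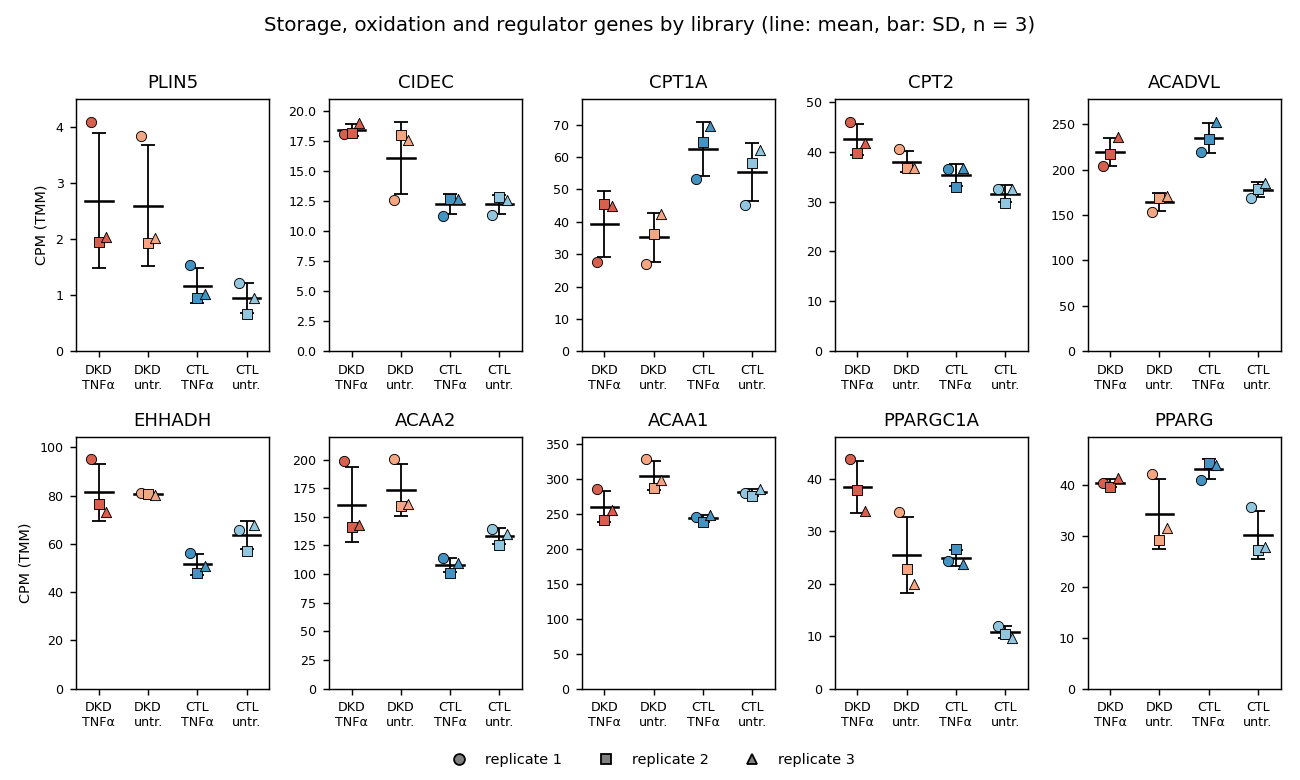
CPM (TMM-scaled, linear axes from 0) of storage, oxidation and regulator genes in each library, DKD groups left of CTL groups and TNFα left of untreated; point shapes give the replicate number, lines the mean and bars the SD (n = 3). Within each treatment CPT1A is lower and EHHADH and ACAA2 are higher in all DKD libraries than in the CTL libraries, ACADVL is above its untreated libraries in both TNFα groups, and PPARGC1A is lowest in untreated CTL cells.

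Whether the knock-down altered the response to TNFα was tested as the difference between the 2 TNFα effects. The edgeR test, with or without the replicate block, called 0 of 42 members and 0 of 16118 genes (background 0%). At an unadjusted p under 0.05 there were 1 member, PPARGC1A, and 184 genes. DESeq2 called 0 members and 5 genes. For PPARGC1A the TNFα effect in DKD cells minus that in CTL cells was -0.62, with a 95% interval of -1.19 to -0.05. For DGAT1, the largest positive value, it was 0.66, with a 95% interval of -0.17 to 1.48, and for EHHADH it was 0.32, with a 95% interval of -0.03 to 0.67. These intervals come from the fit without the replicate block, so differences between replicate numbers count toward their width. Intervals this wide leave changes of such size undecided, and the missing calls do not show that both lines respond alike. The comparisons of DKD with CTL cells share no library between treatments, nor do the TNFα comparisons between lines, whereas comparisons that meet in one group share its libraries.

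**Figure D4:**
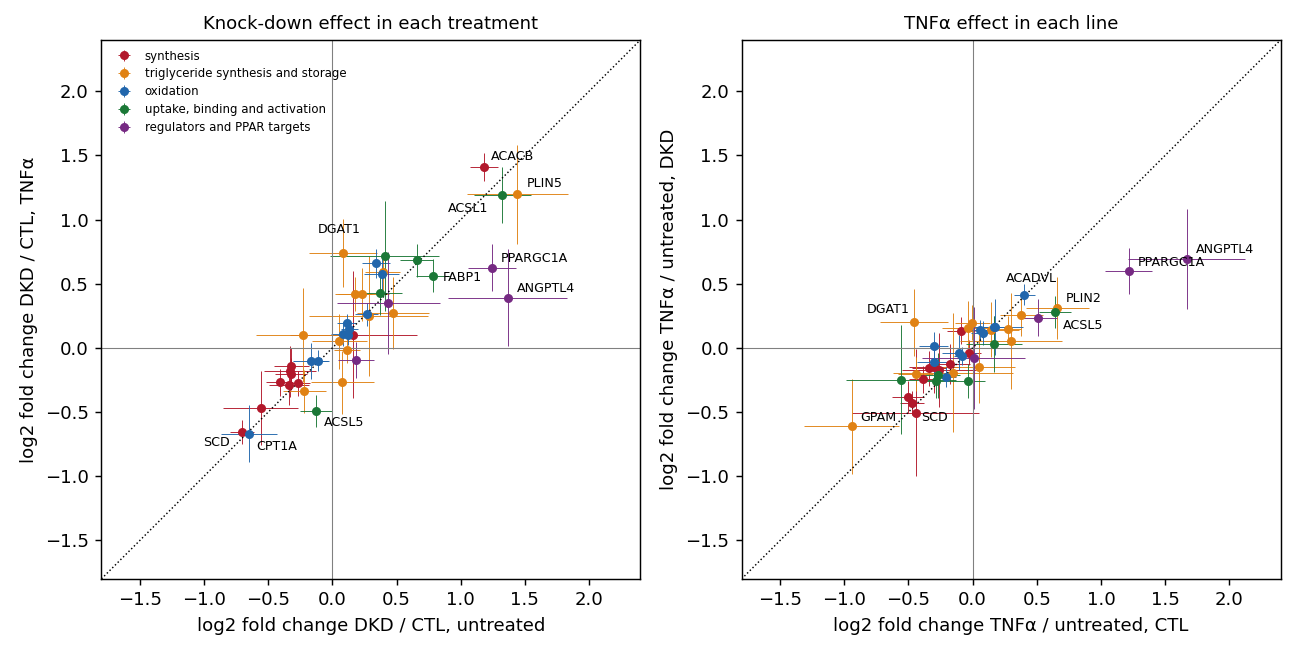
Log2 fold changes of the 42 tested members, coloured by role; bars are SE and the dotted line marks equal values. Left, DKD against CTL with TNFα (vertical) and without it (horizontal); right, TNFα against untreated in DKD cells (vertical) and in CTL cells (horizontal). In the left plot ACACB and ACSL1 lie far above 0 and SCD below 0 on both axes; in the right plot PPARGC1A and ANGPTL4 have higher values in CTL than in DKD cells.

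Several members varied with the library number. In all 4 groups, CD36, GPAM, PLIN5 and PPARA were more than 1.25 times as high in replicate 1 as in the mean of replicates 2 and 3, and ACSS2, AGPAT2, CPT1A and DGAT1 were less than 0.8 times as high. The ratio was 1.71 to 2.395 for CD36 and 1.39 to 2.598 for PPARA, and 0.313 to 0.616 for AGPAT2 and 0.251 to 0.619 for ACSS2. In both DKD groups, though not in all 4 groups, CIDEB, PLIN2, PNPLA2 and PNPLA3 were also more than 1.25 times as high in replicate 1. ELOVL6 was low in replicate 1 of both DKD groups, with 12.8, 24.4 and 21.9 CPM in TNFα-treated DKD cells, against 26.2, 29.4 and 26.2 CPM in TNFα-treated CTL cells. With replicate 1 of both DKD groups left out and that of both CTL groups kept, 14 members were called for TNFα in CTL cells (all genes 8.65%), 4 for TNFα in DKD cells (all genes 2.84%), 10 for DKD without TNFα (all genes 8.72%) and 11 with it (all genes 9.47%).

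**Figure D5:**
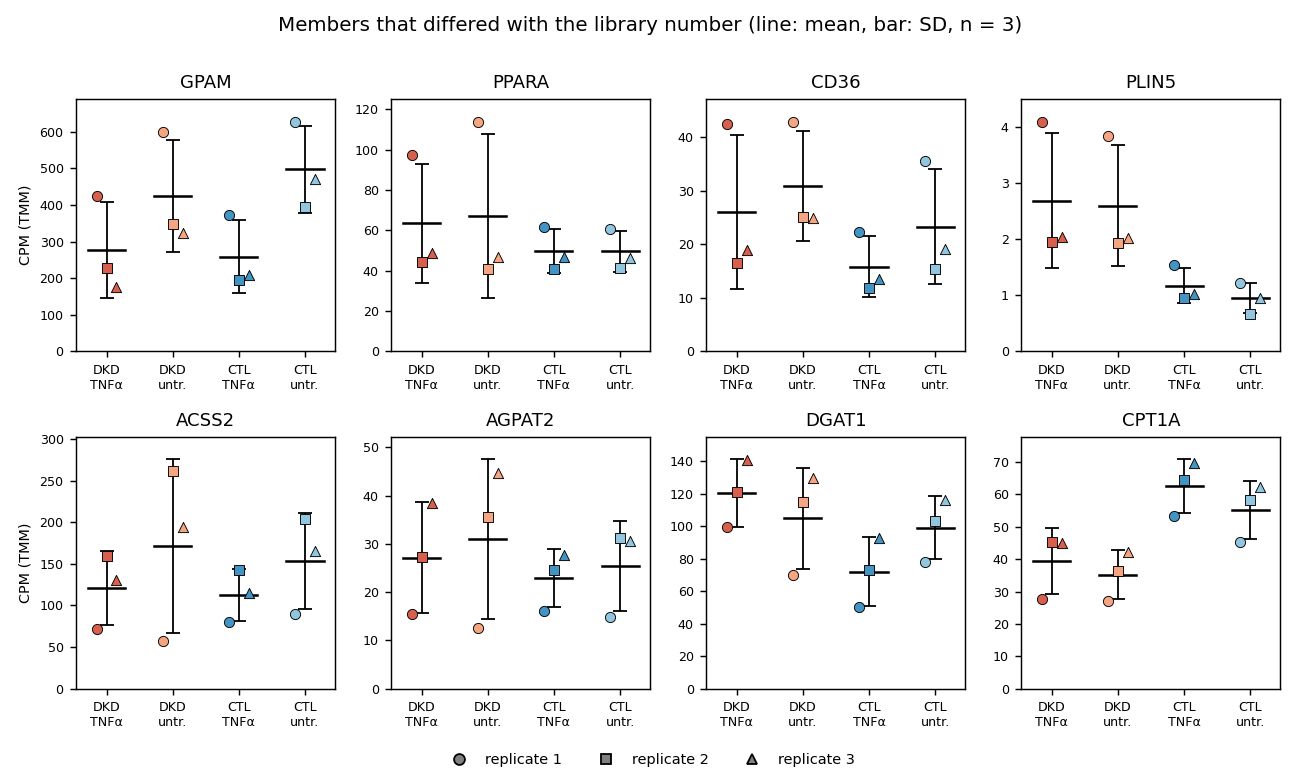
CPM (TMM-scaled, linear axes from 0) of 8 members in each library, DKD groups left of CTL groups and TNFα left of untreated; point shapes give the replicate number, lines the mean and bars the SD (n = 3). GPAM, PPARA, CD36 and PLIN5 are highest in replicate 1 of all 4 groups, and ACSS2, AGPAT2, DGAT1 and CPT1A are lowest there.

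A further 155 genes of the same pathways, of which 132 were tested, were read out beside the members. Relative to CTL cells, 14 were higher and 2 lower in DKD cells with TNFα, beside 3.94% and 2.3% of all genes, and 8 were higher and 0 lower without it, beside 3.13% and 1.86%. TNFα raised 1 and lowered 0 in DKD cells (all genes 1.54% and 0.254%), and raised 3 and lowered 3 in CTL cells (all genes 1.9% and 0.726%). With the replicate block 38 were higher and 7 lower in DKD cells with TNFα (all genes 19.4%) and 26 were higher and 5 lower without it (all genes 16.5%), and with TNFα 6 were higher and 3 lower in DKD cells (all genes 7.67%) and 12 were higher and 18 lower in CTL cells (all genes 12.6%). The 18 other synthesis genes tested did not share the lower values of the synthesis members. Their median log2 fold change in DKD against CTL cells was -0.02 with TNFα and 0.06 without it, 8 and 10 were positive, and 0 were called under either condition. As the average over treatments 0 were higher and 1 lower in DKD cells, beside 8.49% and 6.04% of all genes. Of 36 tested genes of oxidation and ketone body formation, 9 were higher and 0 lower in DKD cells as the average over treatments, beside 8.49% and 6.04% of all genes. With the block 17 were higher and 3 lower (all genes 31.2%). ACOX2, a peroxisomal oxidase of branched chains and bile acid intermediates, averaged 37.9 ± 6.196 CPM in TNFα-treated DKD cells, 41.1 ± 1.34 in untreated DKD cells, 16.96 ± 1.16 in TNFα-treated CTL cells and 24.7 ± 1.97 in untreated CTL cells (SD, n = 3 each). It was higher in DKD cells with TNFα (log2 fold change 1.16 ± 0.12, adjusted p = 0.000289) and without it (log2 fold change 0.73 ± 0.12, adjusted p = 0.00473), and fell with TNFα in CTL cells (log2 fold change -0.54 ± 0.12, adjusted p = 0.039). ECI2, an isomerase for unsaturated chains, PHYH, which starts phytanate breakdown, and DECR1, a reductase for polyunsaturated chains, were also higher in DKD cells under both conditions. With TNFα they differed by 0.66 ± 0.10 (adjusted p = 0.0033), 0.70 ± 0.11 (adjusted p = 0.00398) and 0.50 ± 0.10 (adjusted p = 0.00994). SLC25A20, the carrier that moves acylcarnitines between CPT1A and CPT2, was higher by 0.58 ± 0.13 (adjusted p = 0.018) with TNFα and 0.53 ± 0.12 (adjusted p = 0.0326) without it, and is named for that place, its values having been seen. HADH, the short-chain hydroxyacyl-CoA dehydrogenase, averaged 66.4 ± 6.85 CPM in TNFα-treated CTL cells and 102 ± 7.21 CPM in untreated CTL cells and fell with TNFα (log2 fold change -0.62 ± 0.10, adjusted p = 0.00639).

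ACSM3, a medium-chain acyl-CoA synthetase, averaged 56.1 ± 11.8 CPM in TNFα-treated DKD cells, 21.3 ± 0.936 in untreated DKD cells, 26.04 ± 6.57 in TNFα-treated CTL cells and 10.7 ± 1.11 in untreated CTL cells. It was the one gene of the 5 lists that was called higher in DKD cells under both conditions and higher with TNFα in both lines, at 1.11 ± 0.19 (adjusted p = 0.00587) and 1.001 ± 0.20 (adjusted p = 0.0132) for DKD against CTL cells with and without TNFα, and 1.39 ± 0.20 (adjusted p = 0.00427) and 1.29 ± 0.20 (adjusted p = 0.00593) for TNFα in DKD and CTL cells. DBI, the acyl-CoA binding protein, was higher in DKD cells by 0.49 ± 0.09 (adjusted p = 0.00603) with TNFα and 0.43 ± 0.09 (adjusted p = 0.0139) without it. ACSF2, an acyl-CoA synthetase of mitochondria, was higher in DKD cells with TNFα, at 0.85 ± 0.17 (adjusted p = 0.0129). ACSM5, a medium-chain synthetase, had 12.4, 3.12 and 3.01 CPM in TNFα-treated DKD cells, 12.2, 2.64 and 2.62 in untreated DKD cells, 0.707, 0.171 and 0.11999 in TNFα-treated CTL cells and 0.827, 0.128 and 0.144 in untreated CTL cells, with replicate 1 highest in each group, and was higher in DKD cells with TNFα, at 4.21 ± 1.02 (adjusted p = 0.0337). FITM2, which promotes lipid droplet formation at the endoplasmic reticulum, was higher there, at 0.37 ± 0.08 (adjusted p = 0.0159), and GPAT4, an acyltransferase of the first step of triglyceride assembly, was lower, at -0.40 ± 0.10 (adjusted p = 0.0338). In CTL cells TNFα raised PLIN3, a droplet coat protein (log2 fold change 0.68 ± 0.14, adjusted p = 0.0307), and ACOT9, a mitochondrial acyl-CoA thioesterase (log2 fold change 0.44 ± 0.10, adjusted p = 0.0421), and lowered SLC25A1, the citrate carrier that feeds synthesis (log2 fold change -0.39 ± 0.08, adjusted p = 0.032).

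Of 27 tested regulators, PRDM16, a transcriptional coregulator known from brown fat, averaged 3.35 ± 0.637 CPM in TNFα-treated DKD cells, 2.85 ± 0.693 in untreated DKD cells, 1.59 ± 0.103 in TNFα-treated CTL cells and 1.37 ± 0.166 in untreated CTL cells. It was higher in DKD cells with TNFα, at 1.08 ± 0.22 (adjusted p = 0.0152), and without it, at 1.06 ± 0.23 (adjusted p = 0.0203). RXRA, the partner of the PPARs, and MLXIPL, which encodes ChREBP, were higher in DKD cells with TNFα, at 0.66 ± 0.13 (adjusted p = 0.0116) and 0.54 ± 0.11 (adjusted p = 0.0167), and PPARD, the receptor PPARδ, was lower, at -0.45 ± 0.10 (adjusted p = 0.0188).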

How the data were processed

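Total RNA of 12 HepG2 libraries was sequenced on an Illumina platform, per the labels' protocols. The authors deposited estimated counts per gene symbol, whole numbers as given. The tools named per the submitters' processing notes are Salmon 0.14.0, CASAVA 1.7 and DESeq2, with GRCh38/hg38. Strandedness, the annotation and the summing of transcripts to genes were not given in the sources used here. The normalised table was left out. From the estimated counts, CPM with TMM factors were computed here, genes were filtered with filterByExpr (at least 10 counts, 15 in total), and edgeR 4.0.16 in R 4.3.3 ran its quasi-likelihood test, with 1 mean per group, all 12 libraries and Benjamini-Hochberg adjustment over 16118 genes. Alternatives were DESeq2 1.42.0, RLE size factors, no filter, only the groups compared, the replicate block, both DKD replicate 1 libraries left out and each library left out in turn. The procedure was tested on simulated counts that held no differences between replicate numbers, so that test does not cover this feature of the data.

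The members and the lists of other genes were chosen with earlier results of these data known. Members called in any comparison are given in every library and the others by means or ranges. Up to 4 called genes per comparison within a treatment or line and per list of other genes are named, by smallest p. SLC25A20 and PLIN1 were added after their values were seen. Replicate numbers were taken to pair the libraries: deviations from group means correlated at 0.193 to 0.695 in the 18 same-number pairs of libraries and at -0.544 to 0.311 in the 36 other pairs, with 0.1 as the threshold. The ranges overlap, as untreated DKD replicate 2 and TNFα-treated DKD replicate 3 correlated at 0.311. These values set replicate 1 apart more clearly than replicates 2 and 3 from each other. Replicate libraries all differed beyond counting noise (chi-square per degree of freedom at least 11.4). Gene positions are from GENCODE release 29 and promoter windows from RefSeq, which matched 37 of 43 members. Counts of SCD, CIDEC and HADHA may share reads with pseudogenes that the table also lists.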

Additional observations from a re-analysis of the deposited data

How the results depend on the processing

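No alternative turned the direction of a called member. Of 1986 member values under alternatives, 1717 kept their side of the threshold, 132 lost a call and 137 gained one, and 12 of 615 role medians moved by more than the spread. Counts of members called depended most on the replicate block, which gave 19 for TNFα in CTL cells (4 without the block), 7 for TNFα in DKD cells (2), 18 for DKD without TNFα (7), 21 with TNFα (9), 28 for the DKD average (15) and 20 for the TNFα average (9). These went with larger counts over all genes. DESeq2 called 8 members for TNFα in CTL cells (6.64% of all genes), 4 for TNFα in DKD cells (4.06%) and 14 for DKD with TNFα (10.9%). Fits of only the groups compared called 7 for TNFα in CTL cells (4.11% of all genes), 0 for TNFα in DKD cells (0.223%) and 3 for DKD without TNFα (1.99%). With no filter, the count for TNFα in DKD cells was 1 (0.956% of all genes). With both DKD replicate 1 libraries left out the counts were 4 for TNFα in DKD cells (2.84% of all genes), 14 in CTL cells (8.65%) and 16 for the TNFα average (15.9%). Leaving out 1 library at a time gave 1 to 8 for TNFα in CTL cells, 0 to 3 in DKD cells, 5 to 8 for DKD without TNFα, 5 to 11 with it, 0 to 0 for the interaction, 12 to 16 for the DKD average and 5 to 13 for the TNFα average. The causes of these shifts were not tested. ANGPTL4 had at most 19 counts and PDK4 at most 3 in any library.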
